A study of Mus musculus with 3 samples.

Results

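Wnt-low sinusoidal endothelial cells of the mouse liver were chosen cell by cell from raw counts of unique molecular identifiers (UMIs), and 3825 of the 20950 cells that passed quality filters met the rule. Quality filters asked for 500 or more UMIs, 250 or more genes and a mitochondrial share of 25% or less. A cell then needed at least 3 UMIs summed over 5 sinusoidal genes (Stab2, Clec4g, Ptprb, Oit3 and Gpr182), 0 UMIs of the leukocyte gene Ptprc, 0 of the Kupffer cell genes Clec4f and Vsig4, under 2% of its UMIs from S100a8 and S100a9, and at most 1 UMI of the large-vessel gene Vwf. Cells with at most 1 UMI summed over Wnt2, Wnt9b, Rspo3 and Kit are the Wnt-low cells, and those with at least 2 are called Wnt-positive here. A Wnt UMI below is a UMI of any of these 4 genes, Kit included. Because the rule is a cut on a count, it marks a range of cells and not a separate type.

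Livers came from mice with both Gsdmd alleles floxed (GsdmdFL/FL, genotype given as WT) and from Gsdmd∆Hep mice (genotype given as gsdmd-ko), a notation for loss of the gene in hepatocytes. Gsdmd encodes gasdermin D, the pore-forming protein of pyroptosis. Each of 3 groups is 1 library of the 10x Genomics 3′ assay: untreated GsdmdFL/FL control liver (FL_control here), GsdmdFL/FL liver taken 7 days after 30 Gy of irradiation (FL_IR), and Gsdmd∆Hep liver after the same irradiation (dHep_IR). How many animals stand behind a library, their age, the body part irradiated, the promoter that drove recombination and the floxed exon are not given in the sources used here. With 1 library per group, differences between libraries have no replicate check and get no test, and intervals cover counting error only.

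Liver sinusoids are lined by thin, fenestrated endothelial cells that clear waste from the blood through scavenger and lectin receptors. Along the sinusoid from portal to central vein these cells change their genes: those near the central vein secrete Wnt ligands and R-spondin, which set the pericentral programme of hepatocytes, while those near the portal tract express Notch and ephrin ligands. Few Wnt transcripts in a sinusoidal cell are therefore usually read as a position away from the central vein.

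The cells numbered 560 in FL_control, 1388 in FL_IR and 1877 in dHep_IR, which is 8.46%, 20.5% and 24.9% of the kept cells of each library. They held 3342064, 6856772 and 9454890 UMIs, with medians of 5366, 4875 and 4881 UMIs per cell. Wnt-positive cells of the same libraries numbered 1277, 1135 and 1206 and were deeper, with medians of 8716, 6791 and 6647 UMIs. At least 3 UMIs of 8 general endothelial markers (Pecam1, Cdh5, Kdr, Tie1, Egfl7, Emcn, Eng and Cldn5) were found in 97.5%, 98.0% and 98.0% of the Wnt-low cells. The endothelial part of the label was thus met by genes the rule did not use.

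The levels of the 5 sinusoidal genes belong to the rule and are a description. Stab2, the hyaluronan scavenger receptor, stood at 783, 806 and 892 CPM, where CPM is UMIs per 1000000 UMIs of the Wnt-low cells of a library. Here and below, 3 values without library names stand in the order FL_control, FL_IR and dHep_IR. Clec4g, a sinusoidal lectin, stood at 3646, 1442 and 2208 CPM. Gpr182, an atypical chemokine receptor, stood at 2209.7, 629 and 821 CPM. The median sum of the 5 genes per Wnt-low cell was 62.5 UMIs in FL_control, 23 in FL_IR and 29 in dHep_IR.

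At the lower marker limit, 13, 34 and 32 cells in FL_control, FL_IR and dHep_IR sat at exactly 3 marker UMIs, and 23, 40 and 28 cells that met the other conditions sat just outside at 2. At the Wnt limit, 197, 518 and 677 members had 1 Wnt UMI and 363, 870 and 1200 had 0, while 170, 294 and 376 Wnt-positive cells had 2. Many cells therefore lay next to the Wnt cut, and the Wnt-low cells were the shallower class. Between libraries, 0, 0 and 1 Wnt-low barcodes were shared for the pairs FL_control with FL_IR, FL_control with dHep_IR and FL_IR with dHep_IR. A doublet caller (Scrublet) marked 4, 0 and 1 Wnt-low cells, and these were kept.

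RNA of other cell types differed between the libraries and was followed beside the results. A list of 8 neutrophil markers summed to 94.0 CPM of the Wnt-low cells in FL_control, 1431 in FL_IR and 1383 in dHep_IR. Its part in the results was not tested. Cells with at least 10 UMIs of cholangiocyte, red blood cell, B cell, T or NK cell, stellate or Kupffer markers, or over 1% of UMIs from hepatocyte or neutrophil markers, numbered 11, 14 and 16. Among them were 4, 1 and 3 with cholangiocyte markers, and all together held 4.06%, 0.657% and 1.58% of the Wnt-low UMIs. The rule did not remove them, so counts are also given without them. Red blood cell markers summed to 4043 CPM in FL_control, where 2 of these cells carried them, and to 59.6 without the 11 cells. Median mitochondrial shares were 6.63%, 2.43% and 3.32%.

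Gsdmd itself did not check the labels. In Wnt-low cells it stood at 22.7 CPM in FL_control (76 UMIs), 8.75 in FL_IR (60 UMIs) and 24.5 in dHep_IR (232 UMIs). Wnt-positive cells gave 25.9, 8.28 and 24.3 CPM, Kupffer cells 49.4, 7.66 and 33.8, and neutrophils 71.0, 6.60 and 37.8. The library labelled FL_IR was thus the lowest in each of these sets, and the library labelled dHep_IR was the nearer of the irradiated pair to the control. Hepatocytes, the cells the notation names, numbered only 11, 14 and 4 with 4, 2 and 0 Gsdmd UMIs, and a 3′ tag may lie outside a deleted part. Directions between the irradiated libraries are given for libraries as labelled.

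Wnt-low cells made up 30.5% of the sinusoidal cells in FL_control (95% Clopper-Pearson interval 28.4 to 32.6), 55.0% in FL_IR (53 to 57) and 60.9% in dHep_IR (59.1 to 62.6). Thinning each cell to 3000 UMIs, which leaves out shallower cells, gave 45.7%, 70.3% and 74.7%. Restricting to cells of at least 3000 UMIs and at most 10% mitochondrial UMIs gave 22.6%, 50.2% and 55.9%. The order was FL_control, FL_IR, dHep_IR at each of these settings, but each group is 1 library and the intervals cover the counting of cells only. The share is set by the rule's own genes, which also differed between libraries and not in the same order. Wnt2 had a UMI in 75.7%, 55.6% and 32.4% of thinned Wnt-positive cells (93.8%, 80.1% and 54.5% unthinned) and in 2.92%, 1.49% and 0.354% of thinned neutrophils. Kit had a UMI in 63.5%, 53.1% and 64.2% of thinned Wnt-positive cells. In unthinned Wnt-low cells Kit had a UMI in 18.4%, 19.5% and 24.3%, and Wnt2 in 16.6%, 16.1% and 9.86%. A lower Wnt2 level per cell and more Wnt-low cells cannot be told apart here. A share of recovered cells moves with how well each class survives dissociation, which was not tested.

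**Figure D1:**
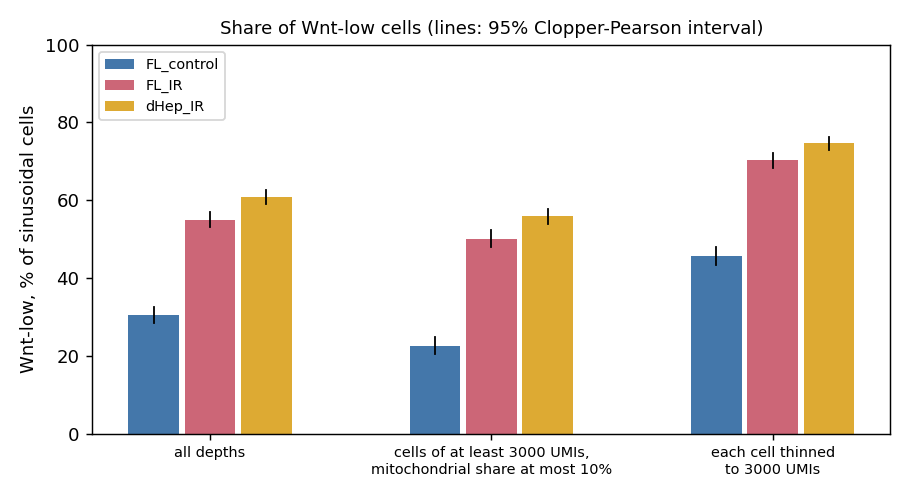
Share of sinusoidal cells (Wnt-low plus Wnt-positive) that were Wnt-low, in percent, for the 3 libraries under 3 treatments of cell depth, with 95% Clopper-Pearson intervals as lines. The FL_control bar is the lowest at each treatment (30.5%, 22.6% and 45.7%) and the dHep_IR bar the highest.

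The comparison of Wnt-low with Wnt-positive cells asks which other genes separate the classes, and both classes were measured in each of the 3 libraries. UMIs were summed per library and class, and edgeR's quasi-likelihood test was run with the library as a block. Of 12915 genes, 235 were higher (1.82%) and 231 lower (1.79%) in Wnt-low cells at a Benjamini-Hochberg adjusted p under 0.05. Without the cells carrying other lineages' markers, 150 of 12639 were higher (1.19%) and 266 lower (2.1%). The same edgeR fit without the library block called 0 genes in either direction, with 290 at an unadjusted p under 0.05, and DESeq2 called 107 higher and 120 lower.

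Periportal landmark genes were higher in Wnt-low than in Wnt-positive cells: 6 of 10 tested rose, beside 1.82% of all genes, and 0 fell. The median log2 fold change was 0.83 beside -0.01 over all genes. Per cell thinned to 3000 UMIs, the median of the summed list was 15 UMIs in Wnt-low and 8 in Wnt-positive cells of FL_control. It was 6 and 6 in FL_IR and 8 and 7 in dHep_IR, so the summed list set the classes apart mainly in FL_control. Dll4, a Notch ligand, stood at 181 against 76 CPM in FL_control, 56 against 27 in FL_IR and 66.4 against 32.5 in dHep_IR, Wnt-low against Wnt-positive (log2 fold change 1.11 ± 0.07 SE, adjusted p = 3.8e-05 by edgeR). Efnb2, the ephrin-B2 ligand of arterial endothelium, stood at 267 against 93.4 CPM in FL_control, 143 against 91.9 in FL_IR and 183 against 119 in dHep_IR (edgeR log2 fold change 0.91 ± 0.14 SE, adjusted p = 0.0069). Wnt-low cells were higher in each of the libraries for both genes.

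Ntn4, a laminin-related netrin, differed by 1.15 ± 0.12 (adjusted p = 0.00066) on the log2 scale in the same edgeR fit, where ± is the SE here and after, and Msr1, the macrophage scavenger receptor, by 0.95 ± 0.16 (adjusted p = 0.0088). Ltbp4, which binds latent TGF-beta in the matrix, stood at 1067 against 582 CPM in FL_control, 18.2 against 13.9 in FL_IR and 27.3 against 14.5 in dHep_IR (edgeR log2 fold change 0.75 ± 0.09 SE, adjusted p = 0.002). The class difference in Ltbp4 thus stood on a level that was far lower in both irradiated libraries.

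Adgrg6, an adhesion G protein-coupled receptor, had the largest class difference of the landmarks (edgeR log2 fold change 5.47 ± 0.71 SE, adjusted p = 0.0025). Its level was 84.7 against 0.526 CPM in FL_control, 2.63 against 1.08 in FL_IR and 1.48 against 0.349 in dHep_IR. Only FL_control had a level well above a few CPM, with 283 UMIs in 13.2% of its Wnt-low cells. DESeq2 did not call Adgrg6, Efnb2 or Msr1. Jag1, another Notch ligand, was not called (edgeR adjusted p = 0.93) and went both ways: it stood at 38.3 against 7.89 CPM in FL_control, 16.3 against 24.1 in FL_IR and 16.8 against 26.2 in dHep_IR. Sox17, Cd55 and Notch1 were not called either.

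Pericentral landmarks outside the rule were lower: 11 of 13 fell, beside 1.79% of all genes, 0 rose, and the median was -0.92. Thbd, the thrombin receptor thrombomodulin, stood at 77.2 against 202 CPM in FL_control, 928 against 1511 in FL_IR and 672 against 1096 in dHep_IR (edgeR log2 fold change -0.91 ± 0.12 SE, adjusted p = 0.0023). Cdh13, a GPI-anchored cadherin, stood at 13.5 against 135 CPM in FL_control, 2.33 against 12.6 in FL_IR and 3.70 against 15.8 in dHep_IR (edgeR log2 fold change -2.83 ± 0.19 SE, adjusted p = 6.9e-05). Selp, the leukocyte adhesion molecule P-selectin, stood at 0.299 against 9.55 CPM in FL_control, 33.8 against 163 in FL_IR and 49.5 against 298 in dHep_IR (edgeR log2 fold change -2.49 ± 0.13 SE, adjusted p = 2.4e-05).

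Lhx6, a LIM homeobox factor, differed by -2.63 ± 0.35 (adjusted p = 0.0027), Dkk3, of the Dickkopf family, by -1.78 ± 0.23 (adjusted p = 0.0023), and Ptgs1, cyclooxygenase 1, by -0.92 ± 0.11 (adjusted p = 0.002) in the edgeR fit. Olfm1, Rab3b, Gja4, Tcim and Plxnc1 also fell, by between 0.41 and 1.27 on the log2 scale. Fabp4 and Diaph2 were not called. With cells of other lineages removed the list medians were 0.86 (periportal) and -0.89 (pericentral), and the counts of 6 and 11 were the same.

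**Figure D2:**
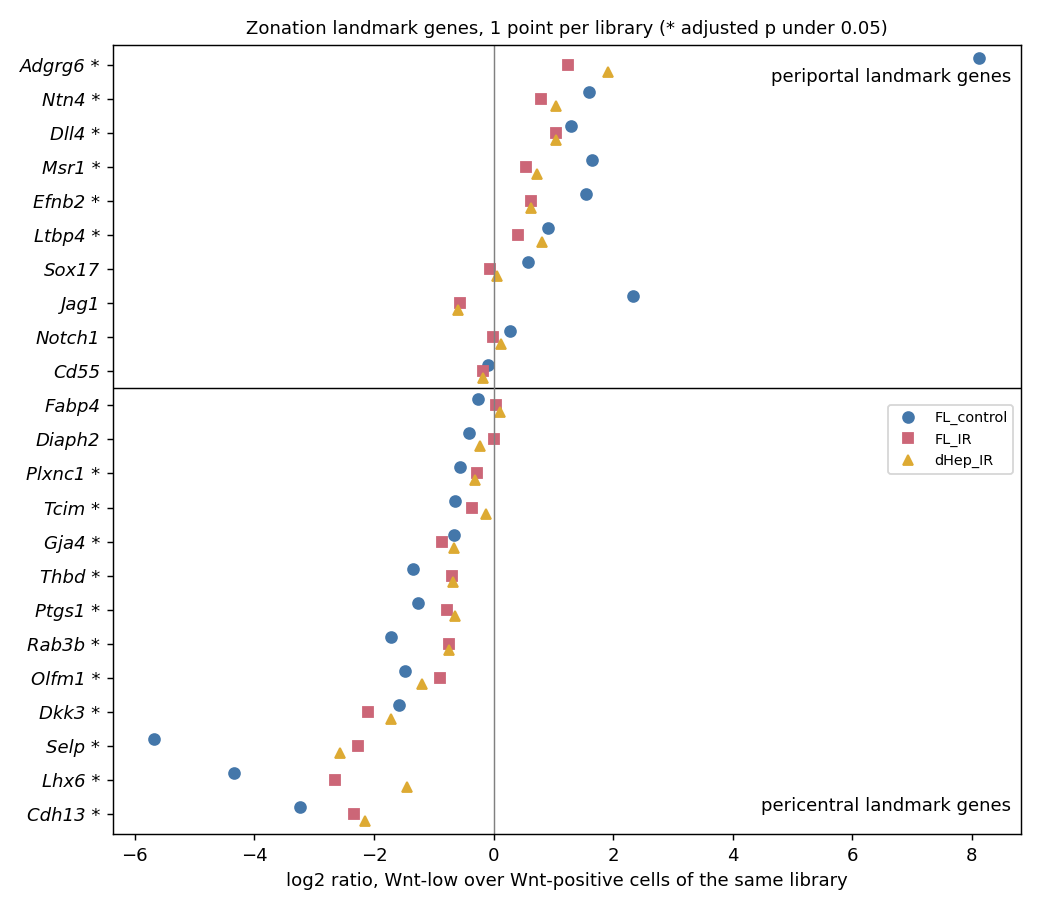
The log2 ratio of Wnt-low over Wnt-positive cells within each library for 10 periportal and 13 pericentral landmark genes, with 1 point per library, cells of other lineages removed, and an asterisk for an edgeR adjusted p under 0.05. Points of the 6 periportal genes that rose lie right of 0 in all 3 libraries, and those of the 11 pericentral genes that fell lie left of 0.

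Past the landmarks, genes with the largest differences were read from the fit without other-lineage cells, because the top of the full fit held epithelial genes from few cells. Vegfc, a ligand of the lymphangiogenic receptor VEGFR3, was higher in Wnt-low cells by 3.03 ± 0.32 (adjusted p = 7.8e-05) on the log2 scale, and Esm1, the tip-cell proteoglycan endocan, by 2.17 ± 0.16 (adjusted p = 3.6e-06) (edgeR). Esm1 stood at 64.9 against 10.3 CPM in FL_control, 68 against 11.5 in FL_IR and 68.9 against 23.7 in dHep_IR, nearly level over the libraries within Wnt-low cells. Slc45a4, a solute carrier, differed by 3.65 ± 0.31 (adjusted p = 1.4e-05) and Gucy1b1, the beta subunit of the nitric oxide receptor guanylate cyclase, by 2.89 ± 0.35 (adjusted p = 0.00024). Gucy1b1 was not called without FL_control.

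The list of these highest genes also held Lmo7, Nrg1, Cyp1a1, Mal and Ajuba, each with edgeR adjusted p between 0.0087 and 0.041. On the lower side stood Glp1r, Ajap1, Tenm1, Tgfb2, Fmo2, Fbln2, Plppr5, Cysltr1 and Rnf165 beside Cdh13. Plppr5, a phospholipid phosphatase-related protein, differed by -3.21 ± 0.29 (adjusted p = 1.7e-05), and Tgfb2, a TGF-beta ligand, by -3.72 ± 0.61 (adjusted p = 0.0028) in the edgeR fit. Glp1r had 0 UMIs in the Wnt-low cells of every library, so its fitted change is no measure of size.

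Other gene groups also held called genes, to be read beside the 1.82% of all genes that were higher and the 1.79% that were lower. Of 20 capillary-type endothelial genes 3 rose and 7 fell, among them Plvap, the diaphragm protein of fenestrae and caveolae, at -0.90 ± 0.06 (adjusted p = 8.7e-05), and Lama4, a laminin chain, at 0.59 ± 0.09 (adjusted p = 0.0066) (edgeR, log2 scale). Of 23 chemokine and cytokine genes 0 rose and 6 fell, among them Ccl2, a chemokine for monocytes, at -1.18 ± 0.08 (adjusted p = 5.3e-05), and Ackr3, a scavenging chemokine receptor, at -1.38 ± 0.17 (adjusted p = 0.0019). In the lipid list 3 of 17 rose, including Cd36, a fatty acid receptor, at 0.52 ± 0.06 (adjusted p = 0.001) and Apoe at 0.31 ± 0.05 (adjusted p = 0.0064). Lama4 and Apoe were not called without dHep_IR, nor Ackr3 by DESeq2. These genes were chosen after their values were seen.

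Members of the response lists were called about as often as all genes (1.82% higher and 1.79% lower), which for lists of this size shows nothing particular to them. Of the p53 targets 1 of 33 rose and 0 fell, and of 30 interferon-stimulated genes, 15 interferon gamma GTPases, 18 genes of MHC class I and antigen processing, 17 TNF feedback genes and 7 metallothionein and zinc genes 0 passed edgeR in either direction. Over all genes 1815 had an unadjusted p under 0.05 in this fit. Of hepatocyte markers 7 of 12 were higher in Wnt-low cells, summing to 586 against 353 CPM in FL_control, 744 against 534 in FL_IR and 331 against 195 in dHep_IR. Without other-lineage cells 7 of 12 were called as well. Their part in the periportal difference was not tested.

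Cells with Vwf made another reference. The set of large-vessel cells first defined, with at least 2 Vwf UMIs and at most 2 sinusoidal marker UMIs, held 0, 1 and 2 cells, so a set with at least 2 Vwf UMIs and at least 3 sinusoidal marker UMIs (38, 20 and 51 cells) was used in its place after the data were seen. By edgeR, 440 of 11825 genes were higher (3.72%) and 416 lower (3.52%) in Wnt-low cells. Without other-lineage cells, 375 of 11557 genes were higher (3.24%) and 446 lower (3.86%), and without the library block the full set gave 0 and 30. Fcgr2b, an Fc receptor of sinusoids, was higher by 1.54 ± 0.17 (adjusted p = 1.5e-17) and Lyve1, a hyaluronan receptor, by 1.56 ± 0.17 (adjusted p = 4.9e-18) on the log2 scale. Lower genes were Jag1 at -3.01 ± 0.20 (adjusted p = 3e-47), Ly6c1 at -4.64 ± 0.24 (adjusted p = 4.5e-82) and Gja5, an arterial gap junction gene, at -6.64 ± 0.72 (adjusted p = 4.7e-18) by edgeR. These 5 genes were chosen after their values were seen. edgeR estimates spread over genes together, so p-values this small from 3 libraries are no measure of a gene's spread between libraries. Of 11 periportal landmarks 1 was higher and 5 lower in Wnt-low cells than in the cells with Vwf, with a median of -0.53. Of 13 pericentral landmarks 1 was higher and 7 lower. Adgrg6 stood at 485.5, 80.0 and 40.1 CPM in the cells with Vwf, above the Wnt-low cells of each library. Of the periportal list, 6 of 10 genes were thus higher than in Wnt-positive cells, but most were not higher than in the cells with Vwf.

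FL_IR against FL_control asks what differed in Wnt-low cells 7 days after irradiation of GsdmdFL/FL mice. Of 10868 genes with at least 20 UMIs over both libraries, 945 (8.7%) were at least 2-fold higher in FL_IR and 1665 (15.3%) at least 2-fold lower, with a median log2 ratio of -0.09. Without other-lineage cells the shares were 9.23% and 14.2%. The same libraries enter dHep_IR against FL_control, where 865 of 11132 genes (7.77%) were higher and 1880 (16.9%) lower, and 8.34% and 16.1% without other-lineage cells. These comparisons share libraries, and values for all 3 libraries are therefore given side by side. Counts of list members at least 2-fold higher or lower in FL_IR are to be read beside these 8.7% and 15.3% of all genes.

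Targets of p53, the factor that answers DNA damage, were mostly higher: 21 of 30 tested were at least 2-fold higher, beside 8.7% of all genes, and 3 at least 2-fold lower, beside 15.3%, with a median log2 ratio of 2.31. Cdkn1a, the p21 inhibitor of cyclin-dependent kinases, stood at 121, 1731 and 1553 CPM, 14.3-fold higher (95% counting interval 13 to 15.9) in FL_IR than in FL_control. Phlda3, an inhibitor of Akt, stood at 12.9, 382 and 346 CPM, a 29.7-fold higher (22 to 41.1) level in FL_IR. Mdm2, the ubiquitin ligase that limits p53, stood at 36.2, 345 and 289.8 CPM. Control cells were low and both irradiated libraries high for each gene.

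Eda2r and Tnfrsf10b, members of the TNF receptor family, were 21.3-fold higher (13.2 to 36.8) and 19.4-fold higher (9.74 to 45.4) in FL_IR. Gdf15, a stress cytokine, stood at 2.69, 121 and 81 CPM. Ckap2, a spindle protein, had 1 UMI in FL_control and 256 in FL_IR, a ratio whose interval runs from 22.2 to 4947. Bax, which permeabilises mitochondria, stood at 181, 1062 and 1066 CPM, and Sesn2, a stress-induced inhibitor of mTORC1, at 18.9, 136 and 139 CPM. Mdm2 and Bax were chosen after their values were seen.

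Most cells of the class held more UMIs of the p53 list in the irradiated libraries. At 3000 UMIs per cell, the median cell held 5 UMIs of the list in FL_control (5th to 95th percentile 1 to 13), 20 in FL_IR (10 to 36) and 19 in dHep_IR (8 to 32). Above the control's 95th percentile were 80.8% of FL_IR cells and 76.6% of dHep_IR cells. Cdkn1a had a UMI in 18%, 95.8% and 95.5% of thinned Wnt-low cells, and in 12%, 11.2% and 20.6% of thinned neutrophils, whose medians for the list were 11, 4 and 3. In thinned Wnt-positive cells Cdkn1a had a UMI in 25.6%, 96.2% and 95.2%, and the list medians were 5, 18 and 18. The p53 difference was thus not particular to Wnt-low cells. Without thinning the Wnt-low shares were 25%, 93.3% and 93.9%, at the median depths above, and the neutrophil medians were 3628, 10176 and 14395 UMIs.

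The promoter of Cdkn1a is shown because it alone among 25 p53-list genes with a RefSeq window held a p53 motif searched as CATG, 6 bases of any kind and CATG again. Windows were the 250 bases before a start in GRCm38.p6, read on both strands with overlapping matches counted; 0.570% of 27025 genes held the motif. The sequence ends before an alternative start of the gene (chr17:29090729-29090978, + strand), with the motif in capitals.
Cdkn1a: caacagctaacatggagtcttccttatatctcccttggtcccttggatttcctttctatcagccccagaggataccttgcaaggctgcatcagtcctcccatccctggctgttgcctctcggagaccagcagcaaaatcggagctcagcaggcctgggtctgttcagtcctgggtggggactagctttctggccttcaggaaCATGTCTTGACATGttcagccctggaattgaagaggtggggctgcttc

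Metallothioneins, small proteins that bind zinc and copper, were higher in both irradiated libraries. Mt1 stood at 642, 12384 and 16419.9 CPM, 19.3-fold higher (95% counting interval 18.5 to 20.1) in FL_IR than in FL_control. Mt2 stood at 133, 4706 and 6779 CPM, a 35.3-fold higher (32.2 to 38.9) level in FL_IR. Of the 7 genes tested in their list 3 were at least 2-fold higher and 0 lower: the third was Slc30a1, a zinc exporter, at 33.5, 68.7 and 62.6 CPM. Mtf1, the zinc-sensing factor of these genes, stood at 28.7, 44.3 and 48.5 CPM.

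The thinned median cell held 2 UMIs of the list in FL_control (0 to 8), 49 in FL_IR (7 to 112) and 68 in dHep_IR (18 to 139). Cells within an irradiated library spanned a wide range. Neutrophils of the same libraries had medians of 0, 1 and 1, with Mt1 at 70.0, 642 and 1001 CPM. Wnt-positive cells had medians of 3, 46 and 67, near those of the Wnt-low cells.

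The Mt1 and Mt2 promoters carry the letters of the metal response element, TGCNCNC, in capitals on either strand with overlapping matches counted, 1 and 5 times. Of 8 list genes with a window 6 held it, beside 47.2% of all genes, so it is common. The windows are chr8:94178839-94179088, + strand and chr8:94172368-94172617, + strand, on the same chromosome.
Mt1: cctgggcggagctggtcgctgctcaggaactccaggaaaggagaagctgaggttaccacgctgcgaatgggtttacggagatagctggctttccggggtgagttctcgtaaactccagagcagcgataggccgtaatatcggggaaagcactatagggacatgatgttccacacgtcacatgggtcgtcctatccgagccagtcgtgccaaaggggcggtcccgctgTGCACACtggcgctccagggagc
Mt2: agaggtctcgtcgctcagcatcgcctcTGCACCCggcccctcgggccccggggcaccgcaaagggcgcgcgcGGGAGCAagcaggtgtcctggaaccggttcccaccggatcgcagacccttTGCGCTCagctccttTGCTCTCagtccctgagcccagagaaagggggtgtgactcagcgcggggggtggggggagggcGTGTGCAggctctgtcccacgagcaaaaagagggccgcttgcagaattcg

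Interferon genes were lower in irradiated Wnt-low cells. Of 29 interferon-stimulated genes tested 27 were at least 2-fold lower in FL_IR and 0 higher, with a median of -2.55. Ifit3b, an RNA-binding antiviral gene, stood at 40.1, 0.875 and 1.16 CPM, and Ifi44 at 187, 4.67 and 6.45 CPM, 40.1-fold lower (95% counting interval 28.1 to 59.1) in FL_IR than in FL_control. Ifit1, which binds viral RNA caps, stood at 53.3, 3.06 and 3.38 CPM, and Ifit3, its partner, at 69.4, 3.35 and 3.38 CPM. For each of these genes FL_control alone was high.

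All 14 interferon gamma GTPases tested, which attack vacuoles of pathogens, were at least 2-fold lower in FL_IR, with a median of -2.53. Irgm2 stood at 64, 7.73 and 11.2 CPM and Gbp3 at 57.4, 5.10 and 6.13 CPM. Cxcl9, an interferon-induced T cell attractant, stood at 396, 7.73 and 22.4 CPM, 51.3-fold lower (95% counting interval 39 to 68.8) in FL_IR than in FL_control. Tnfsf10, the death ligand TRAIL, stood at 118, 4.23 and 4.12 CPM.

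Antigen presentation genes were lower as well. In the MHC class I list 13 of 17 genes were at least 2-fold lower and 0 higher, with a median of -1.50. B2m, the light chain of class I molecules, stood at 5138, 1429 and 1558 CPM, and H2-K1, a heavy chain, at 1995, 544 and 573 CPM. Psmb9, a subunit of the immunoproteasome, was 8.41-fold lower (6.82 to 10.4) in FL_IR. Of 6 MHC class II genes 5 were at least 2-fold lower, but they were scarce: Cd74, the invariant chain, stood at 75.7, 1.31 and 9.20 CPM. Cd74 had the same order in neutrophils, at 489, 9.27 and 48.1 CPM, and B cells, where it is abundant, numbered 1424, 16 and 19. The part of leukocyte RNA in these values was not tested.

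Class I levels were lower cell by cell. The thinned median was 38 UMIs of the list in FL_control (24 to 57.2), 14 in FL_IR (6 to 25) and 13 in dHep_IR (6 to 24), and 93.2% and 93.7% of irradiated cells lay under the control's 5th percentile. For the interferon-stimulated list the medians were 16, 8 and 10, and 32.3% and 20.2% of irradiated cells lay under that limit. Wnt-positive cells were near the Wnt-low cells, with medians of 36.5, 13 and 14 for class I and 15, 8 and 10 for the interferon-stimulated list. Neutrophils had lower medians in the irradiated libraries as well, 27, 8 and 7 for class I and 11, 4 and 5 for the interferon-stimulated list. Neutrophil marker RNA was the higher in both irradiated libraries, as given above, and its part in these values was not tested.

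Promoters of 3 of the lower genes are shown because interferon-stimulated genes share a known element, whose core is searched here as GAAA, 2 bases of any kind and GAAA again on both strands (in capitals, with overlapping matches counted). It was in 11 of 25 list genes with a RefSeq window (44.0%) and in 3.46% of all genes. Ifit1 (chr19:34640639-34640888, + strand) and Ifit3 (chr19:34583279-34583528, + strand), on the same chromosome, each held 2 matches on the reverse strand of the printed sequence, and Isg15 (chr4:156200819-156201068, - strand) held 3 that overlap.
Ifit1: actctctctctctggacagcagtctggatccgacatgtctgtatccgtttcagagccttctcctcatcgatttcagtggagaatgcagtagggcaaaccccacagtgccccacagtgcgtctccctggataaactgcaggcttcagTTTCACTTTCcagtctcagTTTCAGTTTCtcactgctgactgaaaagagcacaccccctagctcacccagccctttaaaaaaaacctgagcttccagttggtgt
Ifit3: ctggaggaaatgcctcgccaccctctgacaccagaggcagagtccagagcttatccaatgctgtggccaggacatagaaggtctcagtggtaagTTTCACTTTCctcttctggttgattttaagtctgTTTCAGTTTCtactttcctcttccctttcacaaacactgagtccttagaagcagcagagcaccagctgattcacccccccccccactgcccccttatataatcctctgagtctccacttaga
Isg15: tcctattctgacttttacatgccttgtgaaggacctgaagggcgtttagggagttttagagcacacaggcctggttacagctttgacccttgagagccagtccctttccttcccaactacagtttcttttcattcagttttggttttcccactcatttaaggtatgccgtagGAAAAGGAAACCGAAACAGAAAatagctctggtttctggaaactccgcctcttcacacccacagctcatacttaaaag
Isg15, a ubiquitin-like modifier chosen after its values were seen, stood at 174, 15.6 and 13.4 CPM.

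**Figure D3:**
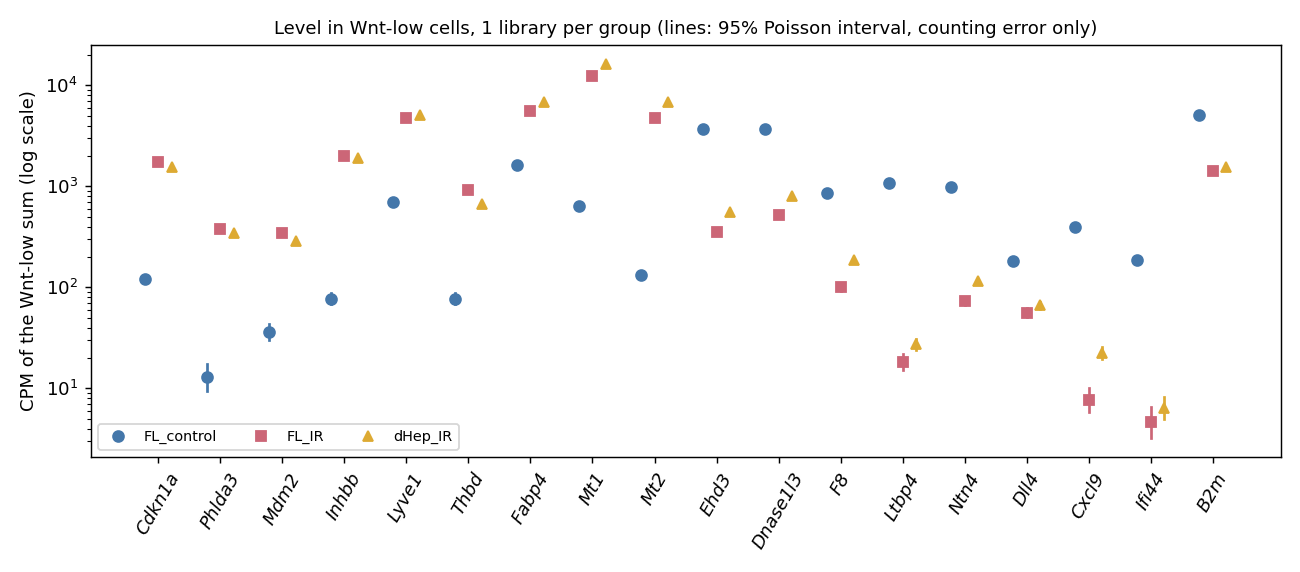
CPM of 18 genes in the Wnt-low cells of each library on a log axis, with 95% Poisson intervals that cover counting error only. For the p53 targets, Inhbb, Lyve1, Thbd, Fabp4 and the metallothioneins FL_control is the lowest point, and from Ehd3 to B2m it is the highest.

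Scavenger and lectin receptors, the clearance machinery of the sinusoid, went both ways: 2 of 17 were at least 2-fold higher and 8 lower, with a median of -0.80. Lyve1 stood at 695, 4748 and 5094 CPM, 6.83-fold higher (95% counting interval 6.55 to 7.13) in FL_IR than in FL_control, and Clec1b, the podoplanin receptor, at 291, 1458 and 1839 CPM. Mrc1, the mannose receptor, stood at 1856, 552 and 698 CPM. Ehd3, an endocytic recycling protein, stood at 3719, 356 and 561 CPM, 10.5-fold lower (95% counting interval 10.0 to 10.9) in FL_IR. Lyve1 had a UMI in 60.5%, 98.8% and 99.2% of thinned cells, and in 4.97%, 8.30% and 8.15% of thinned neutrophils. The unthinned Wnt-low shares were 67.1%, 97% and 98.1%. Thinned Wnt-positive cells gave 82.6%, 98.5% and 98.6% for Lyve1.

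Among 22 genes of sinusoidal identity 8 were at least 2-fold lower and 0 higher, with a median of -0.64. Dnase1l3, a secreted DNase, stood at 3702, 518 and 799 CPM. Aass, a lysine-degrading enzyme that marks sinusoidal endothelium, stood at 243, 10.2 and 9.73 CPM, and Gata4, the transcription factor that specifies sinusoids, at 288, 93 and 100.3 CPM. Kdr, the main VEGF receptor, stood at 2492, 953 and 1049 CPM. FL_control was the highest library for all of these.

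Capillary-type genes gave no common direction, with 6 of 20 at least 2-fold higher and 8 lower. Ednrb, the endothelin B receptor, stood at 91.3, 517 and 249 CPM, and Cd34, a sialomucin of continuous endothelium, at 39.5, 183 and 88 CPM. Tm4sf1, a tetraspanin-like protein, stood at 918, 166 and 160.0 CPM and Ly6a at 1113, 291 and 175 CPM. Ednrb and Cd34 were thus highest in FL_IR and lowest in FL_control.

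Zonation landmarks also differed between the libraries within the class. Of 10 periportal genes 6 were at least 2-fold lower in FL_IR and 0 higher, with a median of -1.22. Ltbp4 was 58.5-fold lower (95% counting interval 49 to 70.5) and Ntn4 13.6-fold lower (12.3 to 14.9) in FL_IR, and Dll4 was 3.23-fold lower (2.83 to 3.68). Ltbp4 had a UMI in 89.4%, 4.62% and 6.73% of thinned Wnt-low cells and in 6.14%, 0.157% and 0.133% of thinned neutrophils, and in 82%, 7.20% and 9.27% of unthinned Wnt-low cells. The thinned median of the periportal list was 15 UMIs in FL_control, 6 in FL_IR and 8 in dHep_IR, beside 8, 6 and 7 in Wnt-positive cells. By this sum the classes lay apart in FL_control and near each other in both irradiated libraries.

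Side by side, the log2 ratios of FL_IR over FL_control in Wnt-low and Wnt-positive cells were -5.87 and -5.38 for Ltbp4, -3.76 and -2.98 for Ntn4, and -1.20 and -0.15 for Msr1. For Jag1 they were -1.23 and 1.61. Whether the classes differ in these ratios was not tested, since each library gives 1 value. Of 13 pericentral landmarks 3 were at least 2-fold higher and 5 lower. Thbd stood 12-fold higher (95% counting interval 10.6 to 13.7) in FL_IR, Fabp4, a fatty acid carrier, stood at 1621, 5514 and 6814 CPM, and Tcim at 449, 119 and 80.8 CPM.

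**Figure D4:**
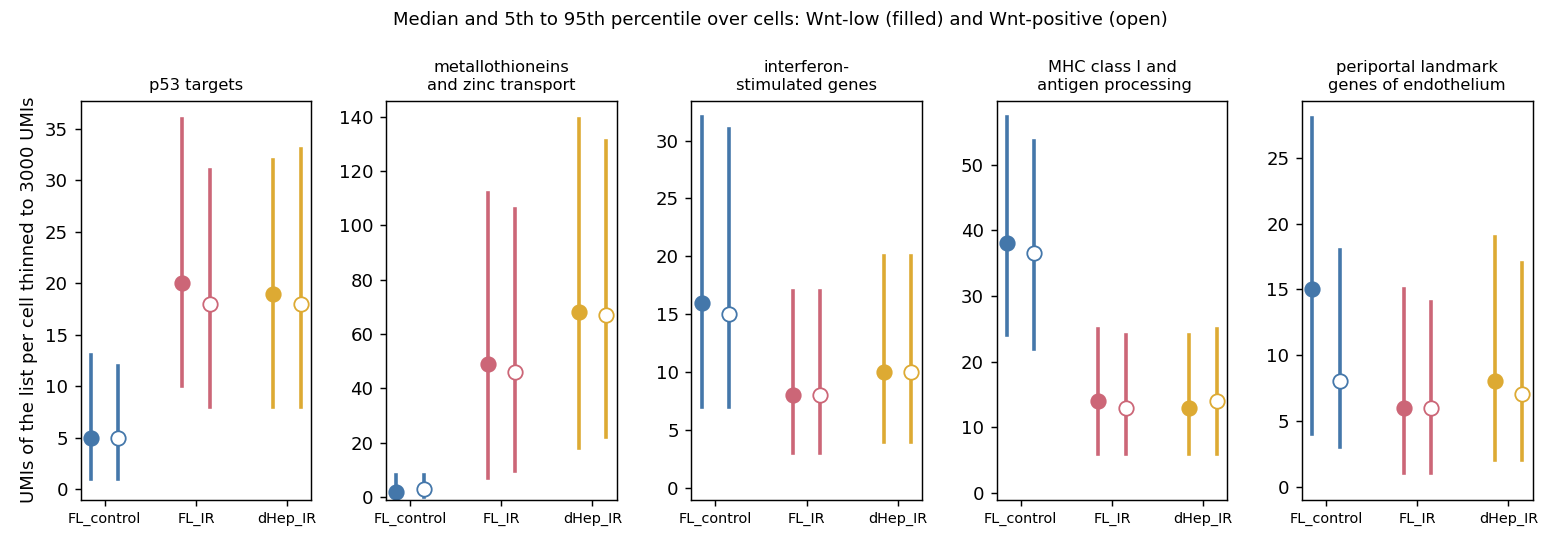
UMIs of 5 gene lists per cell thinned to 3000 UMIs, as the median (point) and the 5th to 95th percentile (line) over Wnt-low (filled) and Wnt-positive (open) cells of each library. The p53 and metallothionein medians of Wnt-low cells are 5 and 2 in FL_control and 20 and 49 in FL_IR. For the periportal list the filled and open points lie at 15 and 8 in FL_control, 6 and 6 in FL_IR and 8 and 7 in dHep_IR.

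Secreted factors of the angiocrine list, through which endothelium acts on hepatocytes, were split, with 4 of 16 at least 2-fold higher and 6 lower. Inhbb, the activin B subunit, stood at 77.5, 1982 and 1887 CPM, 25.6-fold higher (95% counting interval 22.6 to 29) in FL_IR. Hgf, hepatocyte growth factor, stood at 129, 773 and 673 CPM, and Ccn2, a matricellular protein, at 111, 489 and 933 CPM. Lif, an IL-6 family cytokine, had 1 UMI in FL_control, 183 in FL_IR and 216 in dHep_IR. Inhbb had a UMI in 18%, 96% and 97.5% of thinned cells, 29.1%, 95.6% and 95.1% of unthinned cells and 0.877%, 5.76% and 6.60% of thinned neutrophils. Thinned Wnt-positive cells gave 20.8%, 97.8% and 97.4% for Inhbb.

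In the VEGF, angiopoietin and Notch list 1 of 18 was at least 2-fold higher and 6 lower, beside 8.7% and 15.3% of all genes, so the higher count is under that share. Nrp1, a VEGF co-receptor, stood at 1232, 364 and 398 CPM, and Tek, the angiopoietin receptor, at 394, 129.8 and 123 CPM. In the shear and coagulation list 4 of 17 were higher and 6 lower: F8, coagulation factor VIII, stood at 856, 99.9 and 186 CPM, and Procr, the protein C receptor, at 5.69, 49.9 and 33.8 CPM. Thbd and Procr, partners in protein C activation, were thus both higher in the irradiated libraries.

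TNF and NF-kB feedback genes were higher in 8 of 16 cases and lower in 2, with a median of 1.0. Cebpb, a transcription factor of acute inflammation, stood at 97.5, 1225 and 1286 CPM, and Tnfaip3, the A20 inhibitor of NF-kB, at 38, 189.6 and 237 CPM. Of 16 adhesion molecules 4 were higher and 4 lower: Icam1, a leukocyte integrin ligand, stood at 97.5, 325 and 366 CPM and Vcam1 at 152, 44.3 and 69.4 CPM. Selp had 1 UMI in FL_control, 232 in FL_IR and 468 in dHep_IR. It had a UMI in 0%, 5.17% and 8.86% of thinned Wnt-low cells. Thinned neutrophils gave 4.97%, 4.62% and 5.14% for Selp, and thinned Wnt-positive cells 1.68%, 16.3% and 24.7%. The part of neutrophil RNA in the Selp values of Wnt-low cells was not tested. Il4ra, the interleukin 4 receptor, stood at 86.8, 394 and 400.2 CPM and Socs3, an inhibitor of cytokine signalling, at 306, 707 and 779 CPM.

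Of 17 chemokine and cytokine genes 7 were at least 2-fold higher and 7 lower. Ackr3 stood at 4.19, 67.8 and 55.7 CPM, Ccl2 at 12.3, 87.7 and 90.4 CPM and Il33, an alarmin, at 61.9, 5.83 and 5.39 CPM. The senescence list gave 7 higher and 6 lower of 18, among them Plaur, the urokinase receptor, at 13.2, 299 and 211 CPM. In the matrix list, Col1a2 and Col3a1 rested on few cells of FL_control: Col3a1 stood at 19.7 CPM there and at 0.624 without other-lineage cells, and Col1a2 at 16.5 and 0.

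Lipid genes were higher in 4 of 15 cases and lower in 3, beside 8.7% and 15.3% of all genes, so the lower count is near that share. Abca1, the cholesterol exporter, stood at 55.7, 416 and 509 CPM, Apoe at 5306, 756 and 804 CPM and Fabp5 at 987, 171 and 209.8 CPM. Lpl, lipoprotein lipase, stood at 1.20, 42.7 and 68 CPM, beside 4.38, 12.1 and 21.2 in Wnt-positive cells. In the irradiated libraries the Wnt-low cells were thus the higher class for Lpl, and in FL_control they were not.

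The list of pyroptosis and cell death genes, Gsdmd included, gave 3 higher and 6 lower of 16, beside 8.7% and 15.3% of all genes. Bcl2l1, an anti-apoptotic protein, stood at 49.1, 224 and 217 CPM, and Ninj1, which ruptures the membranes of dying cells, at 35, 153 and 153 CPM. Pycard, the inflammasome adaptor ASC, stood at 44.9, 10.2 and 10.4 CPM. Of 9 cell cycle genes 0 were higher and 1 lower, Ccnd1 (cyclin D1), at 456, 44.8 and 74.8 CPM, a count near the 15.3% of all genes. The dissociation stress list was near level, with 1 of 16 higher, 1 lower and a median of -0.02.

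The remaining lists are given beside the 8.7% of all genes higher and 15.3% lower. The IL-6 and STAT3 list gave 3 higher and 1 lower of 14, TGF-beta and BMP signalling 0 and 2 of 17, amino acid and oxidative stress 6 and 2 of 14, and the matrix list 3 and 5 of 16. The lower counts of the IL-6 and TGF-beta lists were at or under the share of all genes. Adamts1, a matrix protease, stood at 223, 1012 and 955 CPM, and Txnrd1, thioredoxin reductase, at 41, 157 and 142 CPM.

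Without regard to lists, the genes with the largest ratios in FL_IR included Zbtb16, a zinc finger transcription factor, with 0 UMIs in FL_control, 835 in FL_IR and 1031 in dHep_IR. Against a floor of 3 UMIs in FL_control this was at least 136-fold higher in FL_IR. Psg22, a pregnancy-specific glycoprotein gene, had 0, 233 and 299 UMIs, at least 37.9-fold higher against the same floor. Ctsj, a cathepsin gene, stood at 1.20, 453 and 295 CPM, with 4 UMIs in FL_control. Gprc5b, Map3k6, Inka2 and Cpt1c completed the higher genes beside Ckap2.

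The lowest ratios belonged to Ltbp4, Tiam1, Pigr, Cxcl9, Slc26a10, Prelp, Ifit3b and Ifi44. Slc26a10 stood at 107, 2.19 and 3.38 CPM, Prelp, a matrix proteoglycan, at 60.7, 1.31 and 1.16 CPM, and Tiam1, an activator of Rac, at 36.8, 0.583 and 0.952 CPM. Pigr, the epithelial receptor for polymeric immunoglobulin, stood at 78.4, 1.46 and 5.50 CPM, but in FL_control only 18.4 CPM remained without other-lineage cells. In dHep_IR against FL_control the lists of leading genes also held Adgrg6, H2-T24 and Itga8 on the lower side and Tmem252 and Selp on the higher.

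**Figure D5:**
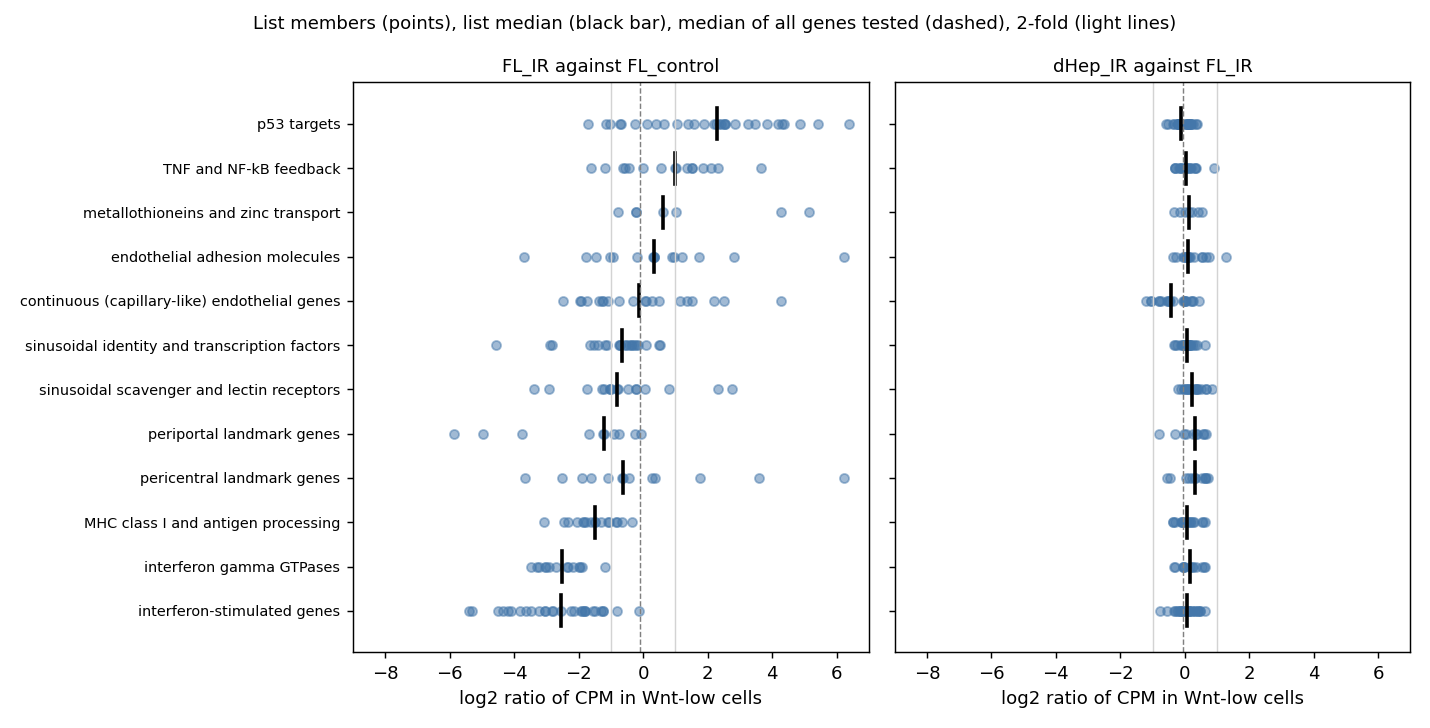
Log2 ratio of CPM in Wnt-low cells for the members of 12 gene lists (points) with the list median (black bar), for FL_IR against FL_control and for dHep_IR against FL_IR, with the median of all genes tested dashed. In the first panel the p53 median lies at 2.31 and that of the interferon-stimulated genes at -2.55, and in the second the medians of these lists lie at -0.12 and 0.07.

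The library labelled dHep_IR against the library labelled FL_IR asks about the Gsdmd∆Hep genotype under irradiation. Of 11209 genes 254 (2.27%) were at least 2-fold higher and 198 (1.77%) lower in Wnt-low cells, with a median log2 ratio of -0.06. Without other-lineage cells 138 (1.25%) were higher and 199 (1.8%) lower. Beside the 2.27% and 1.77% of all genes, 0 of 32 p53 targets, 0 of 27 interferon-stimulated genes and 0 of 17 class I genes were called, with p53 and interferon medians of -0.12 and 0.07. Counts of 0 in lists of this size are near the share of all genes and show nothing particular to these lists. The ratio of Cdkn1a had a counting interval of 0.875 to 0.919.

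Cyp26b1, which degrades retinoic acid, stood at 2641, 1452 and 423 CPM, 3.43-fold lower (95% counting interval 3.31 to 3.56) in dHep_IR than in FL_IR. Its log2 ratio in Wnt-positive cells was -1.60. Ednrb was 2.08-fold lower (1.97 to 2.19) and Cd34 2.08-fold lower (1.91 to 2.28), which with Apln (59 UMIs in FL_IR and 35 in dHep_IR) made 3 of 20 capillary-type genes lower and 0 higher. Over all genes 1.77% were lower and 2.27% higher. Ednrb had a UMI in 8.22%, 43.8% and 25.5% of thinned Wnt-low cells, 9.29%, 48.2% and 29.8% of unthinned ones and 0.877%, 2.08% and 1.46% of thinned neutrophils. Gramd4, Cgnl1, Cdk18, Hlcs and Smad3 were the other leading lower genes, at log2 ratios of -1.51 to -1.02.

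Tmem252, a transmembrane protein gene, stood at 0, 6.71 and 59.7 CPM, 8.89-fold higher (95% counting interval 6.58 to 12.3) in dHep_IR than in FL_IR, with a log2 ratio of 2.41 in Wnt-positive cells. Khdrbs3, an RNA-binding protein, stood at 81.1, 34.3 and 94 CPM, and Clca3a1 at 107, 99.8 and 209 CPM. Ace, the angiotensin-converting enzyme of endothelium, stood at 1.80, 12.5 and 30.6 CPM. For Khdrbs3, as for Gsdmd, the library labelled FL_IR was the low one and dHep_IR lay near the control. Khdrbs3 (chr15:68928420-69101211) and Gsdmd (chr15:75862327-75867408) share a chromosome with Csf2rb2 (chr15:78282507-78305721) and Gramd4 (chr15:86057695-86137634), also leading genes of this comparison. The other leading genes lie on other chromosomes. Whether nearness to Gsdmd plays a part in these values was not tested.

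Clu, clusterin, stood at 340.2, 29.2 and 188 CPM, but without other-lineage cells at 16.5, 18.9 and 31.5 CPM, where it no longer passed 2-fold. Csf2rb2 and Asph completed the leading higher genes. Of 19 chemokine and cytokine genes 4 were higher and 0 lower, beside 2.27% and 1.77% of all genes. Cxcl9 was 2.90-fold higher (2.14 to 4.0) in dHep_IR, still far under FL_control. Between the same libraries Cxcl9 stood at 1.23 and 126 CPM in other Ptprc-positive cells and at 0.382 and 2.22 in neutrophils, and the part of their RNA in the Wnt-low value was not tested. Ccl5, a T cell attractant, stood at 16.5, 1.46 and 5.50 CPM. Beside 2.27% of all genes, 4 of 5 MHC class II genes were higher on few UMIs, such as 9 of Cd74 in FL_IR and 87 in dHep_IR. Cd74 was also higher in dHep_IR than in FL_IR in neutrophils (48.1 against 9.27 CPM) and in other Ptprc-positive cells (3121 against 257), and its source in Wnt-low cells was not tested. Ccn2 was 1.91-fold higher (1.83 to 1.99) and F8 1.86-fold higher (1.70 to 2.04), both under 2-fold.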

How the data were processed

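Single cells of mouse liver were measured in 3 libraries with the 10x Genomics 3′ assay, 1 library per group. Deposited values are raw UMI counts per gene and barcode, made by the authors with Cell Ranger 6.1.1 on mm10, per the file headers. CASAVA 1.8 and Seurat 4.0.3 stand beside it in the submitters' processing notes. No cell annotation was used here. Libraries held 7393, 7265 and 8214 barcodes with 52858425, 59228905 and 78694038 UMIs for FL_control, FL_IR and dHep_IR, and 6618, 6780 and 7552 cells passed the filters. All pairs of libraries shared between 10 and 60 barcodes.

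The members and gene lists were chosen with earlier results of these data known. Counts of the class were summed per library and scaled to CPM. Between libraries, log2 ratios used a prior count of 0.5, fold intervals are exact conditional 95% intervals of the counts, and a gene with at least 20 UMIs over both libraries was called at 2-fold. Wnt-low and Wnt-positive sums were compared with edgeR 4.0.16 (quasi-likelihood, TMM, R 4.3.3) paired by library, since both classes come from the same library, with Benjamini-Hochberg adjustment. It was also tested on simulated data for that comparison (12925 genes). There the dispersion was set and not estimated from these data, and changes were planted only in genes with at least 100 UMIs. In that setting it recovered 89% of genes changed 2-fold and 100% of those changed 4-fold, with 1.56% false calls. These rates do not carry over to the real comparison or to genes with fewer UMIs. DESeq2 1.42.0 was an alternative. The SE beside edgeR values was worked back from the test. It is the absolute log2 fold change divided by the square root of the F statistic. Doublets were marked with Scrublet (scanpy 1.11.5) and kept.

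Named genes are, first, Gsdmd and the rule's genes. Per library comparison, the 8 highest and 8 lowest ratios were taken among genes with at least 100 UMIs, found in at least 10% of cells of 1 library. In the library where it was higher, such a gene also needed at least 0.25 times the CPM of each other cell set compared, so it could be higher in another set. Further named genes are up to 6 members per list with the largest ratios of FL_IR over FL_control, and the 10 largest edgeR differences per direction. Landmark genes, Clu, Kdr, Ccl5, Mtf1, Bax, Mdm2 and Isg15 and others outside these rules were chosen after their values were seen. Promoter sequences are from RefSeq, GRCm38.p6, without chromosome 18, and motif shares of all genes are of the genes searched.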

Additional observations from a re-analysis of the deposited data

How the results depend on the processing

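With 1 library per group, neither irradiation nor genotype can be told apart from the library, and the 3 libraries of the class comparison set its precision. Of 134 alternative values of the main counts and shares, 86 stayed within their limits and 48 moved; the causes were not tested except where fewer genes, cells or libraries entered. Alternatives on other-lineage cells, the Wnt condition and the set of cells with Vwf were chosen after seeing the data.

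Wnt-low against Wnt-positive cells gave 107 higher and 120 lower genes by DESeq2, 396 and 518 with no filter on low counts, 141 higher with cells thinned to 3000 UMIs and 150 higher without cells of other lineages. Without the replicate block, so with libraries not paired, 0 were higher and 0 lower by edgeR (290 at an unadjusted p under 0.05; 227 calls by DESeq2 with the block). Leaving out 1 library gave 90 (without dHep_IR) to 393 (without FL_control) higher and 77 (without FL_IR) to 468 (without FL_control) lower. Against the cells with Vwf, DESeq2 gave 107 higher and 270 lower. The fit without the replicate block gave 0 and 30 (761 at an unadjusted p under 0.05), and thinning 253 and 171. Leaving out 1 library there gave 149 (without dHep_IR) to 304 (without FL_IR) higher, with 210 without FL_control, and 221 (without dHep_IR) to 337 (without FL_IR) lower.

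For FL_IR against FL_control, no filter gave 1900 higher and 4055 lower genes, and at least 100 UMIs gave 914 lower. For dHep_IR against FL_IR these were 2358 and 1801 with no filter, 65 and 44 with at least 100 UMIs, and 138 higher without cells of other lineages. For dHep_IR against FL_control they were 1576 and 4051 with no filter and 1030 lower with at least 100 UMIs.

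Shares of Wnt-low cells in FL_control, FL_IR and dHep_IR were 5.98%, 18.2% and 21.7% of all cells with at least 3000 UMIs and at most 10% mitochondrial UMIs (22.6%, 50.2% and 55.9% of sinusoidal cells). Thinned, they were 15.6%, 27.1% and 30.2% (45.7%, 70.3% and 74.7%). A marker sum of at least 6 gave 18.8% in FL_IR and 23.6% in dHep_IR.

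Single genes turned direction as follows, on the log2 scale. FL_IR against FL_control gave 0.19 for Clu and 1.24 for Col1a2 without other-lineage cells, 1.27 for Col1a2 at a marker sum of at least 6, and 0.48 for Jag1 with the Wnt condition dropped (0.52 for dHep_IR against FL_control). For dHep_IR against FL_IR, Lmo7 was -0.62 by mean per-cell CPM, -1.40 at a marker sum of at least 6 and -2.22 without other-lineage cells. Clu against Wnt-positive cells was -0.17 thinned and -0.32 without other-lineage cells, and against the cells with Vwf -1.18 and -1.78. With 1 library left out, the values against Wnt-positive cells ran from -0.26 to 0.21 for Adamts1, -0.75 to 0.47 for Il33, -0.61 to 0.73 for Jag1 and -0.96 to 0.29 for Tiam1, each turning without FL_control. Against the cells with Vwf they ran from -1.69 to 0.042 for Ackr3 and -0.19 to 1.72 for Cd74, both turning without FL_control. For Ccl2 they ran from -1.70 to 0.37, turning without dHep_IR.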
